A study of Mus musculus with 6 samples.

Results

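The ATF4 stress response regulators are 10 mouse genes of the integrated stress response, chosen by name: *Atf4*, *Ddit3*, *Trib3*, *Chac1*, *Atf3*, *Atf5*, *Ppp1r15a*, *Sesn2*, *Cebpb* and *Ddit4*. Of these, 9 had a row among the 13426 genes of the deposited table, and *Atf3* had none. RNA was sequenced from early LPre-B cells (early large pre-B), the stage of B cell development in bone marrow at which the variable segment of the immunoglobulin heavy chain is joined. The cells were sorted as live, lineage-negative, B220+, CD43+, CD2- cells of large size without surface IgM. The Ctrl group (genotype Upf1 Flox/Flox, Mb1 +/+) and the cKO group (Upf1 Flox/Flox, Mb1 Cre/+) each had 3 libraries, from age-matched adult mice of both sexes on a C57BL/6 background. Both groups carried the floxed *Upf1* alleles. The cKO group also carried Cre at 1 *Mb1* (*Cd79a*) allele, which acts throughout the B lineage and so before the stage that was sorted. UPF1 is an RNA helicase that is central to nonsense-mediated mRNA decay, the pathway that degrades transcripts whose translation stops early.

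The integrated stress response starts with kinases that phosphorylate the alpha subunit of the initiation factor eIF2 on amino acid shortage, misfolded protein in the endoplasmic reticulum, double-stranded RNA or haem shortage. General translation then slows, while the mRNAs of ATF4, ATF5, CHOP (the product of *Ddit3*) and GADD34 (the product of *Ppp1r15a*) are translated better, because short reading frames upstream of their coding sequences no longer hold ribosomes back. ATF4 binds DNA as a dimer with C/EBP and other bZIP proteins at C/EBP-ATF response elements (CARE) and raises transcription of its targets. Several of these mRNAs are also known substrates of nonsense-mediated decay.

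Promoter windows of the members from RefSeq (build GRCm38.p6, 250 bases before to 50 bases after an annotated start) matched all 10 symbols and numbered 11, since *Atf5* had 2. Each was searched on both strands for the CARE core TGATGNAA, the cyclic AMP response element TGACGTCA and the C/EBP site TTGCNNAA. The stretches of 30 bases around every match are shown, on the strand of the gene, with the match in capitals. A CARE core on the opposite strand reads as its reverse complement.
*Atf3*, chr1:191183425-191183454, minus strand: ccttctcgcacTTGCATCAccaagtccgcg
*Chac1*, chr2:119351038-119351067, plus strand: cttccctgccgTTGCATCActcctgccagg
*Trib3*, chr2:152344028-152344057, minus strand: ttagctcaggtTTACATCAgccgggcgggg
*Ppp1r15a*, chr7:45526262-45526291, minus strand: cgcctctccggTGACGTCAgcacagcgccg

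*Atf3* and *Chac1* held the same 8 letters, which began 110 and 193 bases before the start. In *Trib3* a CARE core began 14 bases after the start, and in *Ppp1r15a* the cyclic AMP response element began 12 bases before it. The CARE core was thus in 3 of 11 windows of the members (27.3%), against 3.97% of all 32851 windows. Among genes with a row, which leaves out *Atf3*, it was in 2 of 10 windows of the members against 311 of 12877 (2.42%). The cyclic AMP response element was in 1 of 11 windows (9.09%) against 1.79% of all windows, and the C/EBP site in 0 of 11 against 10.8%. These shares are a description of letters in short windows and were not tested.

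The 250 bases before the starts of *Chac1* (chr2:119350992-119351241, plus strand) and *Ddit3* (chr10:127290543-127290792, plus strand) are given whole. *Chac1* had the fewest reads of the members in Ctrl and *Ddit3* the smallest p-value. Capitals in the *Chac1* sequence mark its CARE core, and the *Ddit3* sequence held none of the 3 motifs.
*Chac1*: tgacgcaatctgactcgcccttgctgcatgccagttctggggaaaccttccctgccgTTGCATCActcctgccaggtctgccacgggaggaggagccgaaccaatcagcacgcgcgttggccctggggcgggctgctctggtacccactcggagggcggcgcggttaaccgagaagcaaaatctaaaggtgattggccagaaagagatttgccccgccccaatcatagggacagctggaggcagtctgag
*Ddit3*: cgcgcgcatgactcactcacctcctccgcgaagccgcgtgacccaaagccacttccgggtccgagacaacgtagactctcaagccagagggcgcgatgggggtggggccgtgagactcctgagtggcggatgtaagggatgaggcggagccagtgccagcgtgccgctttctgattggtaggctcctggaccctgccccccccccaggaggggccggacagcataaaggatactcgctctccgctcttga

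Reading frames upstream of the coding sequence were counted in 1 GENCODE M21 transcript per gene. *Ppp1r15a* had 7 upstream AUGs, *Atf4* had 3, *Atf5* and *Ddit3* had 2 each, and *Sesn2* and *Atf3* had 1 each, while *Cebpb*, *Chac1*, *Ddit4* and *Trib3* had none. In *Atf4* the frames ran for 36, 3 and 59 codons before the stop, and the last one ran past the start of the coding sequence. *Atf5* had the same arrangement, a frame of 3 codons and then one of 58 codons that ran past the coding start. In *Ddit3* the 2 AUGs were followed by 34 and 31 codons before a stop. Each AUG was read to its first stop, so AUGs of 1 frame that share a stop were counted apart. The shortest frames are shown in capitals, from AUG (written ATG) to stop, with 9 bases on either side.
*Atf4*, 184 bases before the coding start: gcggccaccATGGCGTATTAGaggcagcag
*Atf5*, 240 bases before the coding start: gcccgcgcaATGGCTCTGTAGccgcgaccc
*Ppp1r15a*, 185 bases before the coding start: gttctaaggATGTAGagcttgggt

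None of the 10 transcripts (0 of 10) had an exon junction over 50 bases after the stop codon, the other feature by which decay substrates are often recognised. It was rare among the transcripts read, with 42 genes (0.352%), of which 52.4% were higher in cKO (median log2 fold change 0.39). Only transcripts of the protein-coding type were read, so transcripts annotated as decay substrates were left out beforehand. The 0 of 10 therefore does not show that these genes lack such transcripts. Upstream AUGs were common. They were present in 51.6% of the 11938 genes with a coding transcript. Of those genes 29.5% were higher in cKO, against 29.1% of genes without one, with median log2 fold changes of 0.03 and 0.01.

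Levels are given as normalised reads, (reads + 0.5) per 1e6 of the authors' effective library size, and the libraries held between 9732498 and 11006834 reads. Differences were tested with limma on log2(value + 1) over all 13426 genes, and a gene was called at an adjusted p (Benjamini-Hochberg) below 0.05. On this scale the change of a low gene is understated, so ratios of the group means are also given. *Upf1* itself had 260, 203 and 259 normalised reads in Ctrl 1, 2 and 3 and 308, 283 and 300 in cKO 1, 2 and 3 (log2 fold change 0.31, adjusted p 0.00696). It was not called with median centring or with eBayes without trend (adjusted p up to 0.0707), and its log2 fold change ranged from 0.19 to 0.51 over 19 alternatives. Its whole-gene value includes the exons that Cre leaves in place, so it does not check the deletion. The study itself reported loss of UPF1 protein in pro-B and early LPre-B cells of cKO mice. *Cd79a*, where Cre sits, had 213 to 234 normalised reads in Ctrl and 71.6 to 75.2 in cKO.

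Of the 9 members with a row, 8 were higher in cKO, 0 were lower, and *Cebpb* was not called. Over all genes 27.7% were called higher and 25.0% lower. Each row of the table had over 0.5 normalised reads in at least 3 libraries. *Chac1* had no Ctrl library (0) over that value, so it had a row through cKO alone and had to differ. Of the other 8 members 7 were higher (median log2 fold change 1.63). Over all genes, 206 had a row through cKO alone, and 180 of these were called higher. The members called higher were the same 8 in which every cKO library lay above every Ctrl library, a pattern that 30.9% of all genes showed. With libraries scaled to their total reads 5172 genes were higher and 1936 lower, and with median centring 2992 and 4355, which put the overall median at 0.19 and -0.10. The count of members called higher was 8 and 7 under these scalings. The median log2 fold change of the 9 members was 1.78 (*Atf5*), and that of all genes was 0.01. All of these are bulk values, in which fewer cells of a type and less RNA per cell cannot be told apart.

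**Figure D1:**
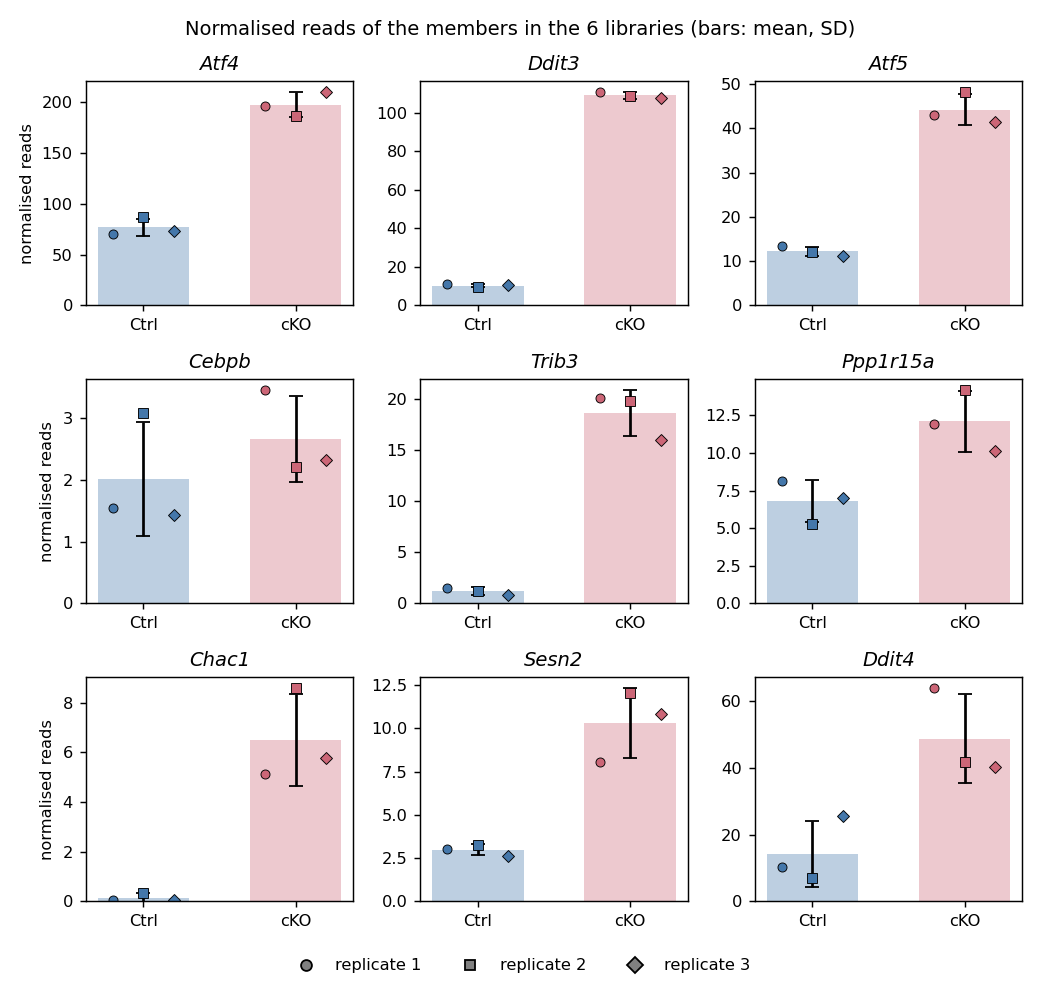
Normalised reads of the 9 members with a row, with 1 panel per gene and its own axis from 0. Points are the 3 Ctrl and 3 cKO libraries, bars are group means and whiskers are 1 SD. The groups are apart in all panels except that of *Cebpb*, and Ctrl 3 stands above the other Ctrl libraries for *Ddit4*.

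Among the transcription factors, *Atf4* (Entrez ID 11911, chr15:80255184-80257545), the central transcription factor of the response, had 70.2, 86.7 and 73.4 normalised reads in Ctrl 1, 2 and 3. The values in cKO 1, 2 and 3 were 196, 186 and 210. The lowest cKO library lay well above the highest Ctrl library. The means of 76.8 ± 8.78 and 198 ± 12.0 (SD, n = 3 each) differed 2.57-fold, and the fitted log2 difference of value + 1 was 1.36 (SE 0.089) at an adjusted p of 6.54e-10.

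*Ddit3* (Entrez ID 13198, chr10:127290793-127296291) encodes CHOP, a bZIP factor induced by ATF4 that is known for promoting cell death under lasting stress. It had 10.9, 9.35 and 10.6 normalised reads in Ctrl 1, 2 and 3. In the same order the cKO libraries had 111, 108 and 108. Libraries within a group were nearly level, so that the 10.6-fold difference of the means (10.3 ± 0.816 and 109 ± 1.67) stood far outside their spread. The fitted log2 difference was 3.29 (SE 0.102) at an adjusted p of 2.36e-14, rank 7 of 13426 by p-value and rank 18 by size among rises. *Ddit3* overlaps *Mars1* and *Mbd6*, and counting ignored strand. *Mars1*, a tRNA synthetase gene, rose 1.48-fold (118 ± 5.40 to 175 ± 7.76), and *Mbd6* had 55.6 ± 4.91 and 51.6 ± 3.46 (adjusted p 0.39).

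*Atf5* (Entrez ID 107503, chr7:44812256-44816658), a bZIP factor under the same kind of translational control as ATF4 and tied to the mitochondrial stress response, had 13.3, 12.2 and 11.2 normalised reads in Ctrl 1, 2 and 3. In cKO 1, 2 and 3 it had 43.1, 48.3 and 41.4. The groups did not overlap, the means differed 3.62-fold (12.2 ± 1.08 and 44.3 ± 3.57), and the fitted log2 difference was 1.78 (SE 0.119) at an adjusted p of 9.2e-10. It overlaps *Nup62*, a nuclear pore gene, which fell by 0.48 on the log2 scale (208 ± 8.91 to 149 ± 1.85).

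*Cebpb* (Entrez ID 12608, chr2:167688915-167690432), a C/EBP factor that dimerises with ATF4 and CHOP and is abundant in myeloid cells, had 1.54, 3.08 and 1.44 normalised reads in Ctrl 1, 2 and 3. The values in cKO 1, 2 and 3 were 3.46, 2.21 and 2.32. The groups overlapped, since Ctrl 2 was above 2 of the cKO libraries. The log2 fold change was 0.30 (SE 0.238, 95% interval -0.20 to 0.80, adjusted p 0.3), so a rise of the size seen for *Atf4* lay outside the interval. *Atf3*, a bZIP factor induced by many stresses, had no row, and every row of the table exceeded 0.5 normalised reads in at least 3 libraries.

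*Trib3* (Entrez ID 228775, chr2:152337425-152344060) encodes a pseudokinase that is induced by ATF4 and CHOP and restrains ATF4 in turn. It had 1.54, 1.26 and 0.844 normalised reads in Ctrl 1, 2 and 3. In the same order the cKO libraries had 20.1, 19.8 and 16.0. The means of 1.22 ± 0.351 and 18.6 ± 2.28 differed 15.3-fold, and the fitted log2 difference of value + 1 was 3.15 (SE 0.191) at an adjusted p of 2.5e-10.

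*Ppp1r15a* (Entrez ID 17872, chr7:45522917-45526268) encodes GADD34, which brings protein phosphatase 1 to phosphorylated eIF2 alpha and so ends the response. It had 8.13, 5.30 and 7.00 normalised reads in Ctrl 1, 2 and 3. In cKO 1, 2 and 3 it had 12.0, 14.2 and 10.2. The groups did not overlap, but the gap between Ctrl 1 and cKO 3 was small, and this was the least change among the 8 members called. The means of 6.81 ± 1.42 and 12.1 ± 2.03 differed 1.78-fold (log2 fold change 0.75, SE 0.18, adjusted p 0.00175). Its locus also overlaps *Tulp2*, which had no row.

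The remaining members are effectors. *Chac1* (Entrez ID 69065, chr2:119351242-119354326), an enzyme that breaks down glutathione, had 0, 3 and 0 reads in Ctrl 1, 2 and 3. The values in cKO 1, 2 and 3 were 5.12, 8.61 and 5.77 normalised reads, which is 215 reads in all. It was thus at the edge of detection in Ctrl and clearly present in every cKO library. The ratio of 215 to 3 reads, allowing for library size, was 63.4-fold with an exact 95% interval of 21.4 to 310 that covers counting error only. The log2 fold change of value + 1 was 2.69 (SE 0.228), given as a description with no test, since the row exists through the cKO libraries alone.

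*Sesn2* (Entrez ID 230784, chr4:132492804-132510456), the leucine sensor Sestrin 2 that inhibits mTORC1, had 3.03, 3.28 and 2.63 normalised reads in Ctrl 1, 2 and 3. In the same order the cKO libraries had 8.05, 12.0 and 10.8. The groups did not overlap, and the 3.46-fold difference of the means (2.98 ± 0.329 and 10.3 ± 2.04) came with a fitted log2 difference of 1.49 (SE 0.191, adjusted p 3.12e-06).

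*Ddit4* (Entrez ID 74747, chr10:59949675-59951770) encodes REDD1, which lowers mTORC1 activity through the TSC complex. It had 10.3, 7.02 and 25.6 normalised reads in Ctrl 1, 2 and 3. In cKO 1, 2 and 3 it had 64.0, 41.8 and 40.3. Every cKO library was above every Ctrl library, but both groups were spread widely, with Ctrl 3 and cKO 1 standing apart from the others. The means of 14.3 ± 9.91 and 48.7 ± 13.3 differed 3.41-fold, and the fitted log2 difference of value + 1 was 1.86 (SE 0.537) at an adjusted p of 0.0443. The call was lost without Ctrl 1, Ctrl 2, cKO 1, cKO 2 or cKO 3 (adjusted p 0.127, 0.0864, 0.118, 0.0946 and 0.0951), and without Ctrl 3 the log2 fold change was 2.35 (adjusted p 2.03e-07).

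The order of the members was compared per length, as normalised reads per kb of exon. In Ctrl *Atf4* was highest at 44.5 ± 5.09 per kb, above *Ddit3* at 11.5 ± 0.916, *Ddit4* at 8.14 ± 5.65 and *Atf5* at 6.13 ± 0.543. Of these neighbours, *Ddit3* and *Ddit4* overlapped across libraries, as did *Ddit4* and *Atf5*. *Ppp1r15a* (2.32 ± 0.484) and *Cebpb* (1.34 ± 0.612) came next and overlapped, then *Sesn2* (0.858 ± 0.0946) and *Trib3* (0.600 ± 0.173), which overlapped too, and *Chac1* was last at 0.0929 ± 0.107.

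In cKO *Ddit3* (122 ± 1.88 per kb) and *Atf4* (115 ± 6.98) led and overlapped, and both were far above *Ddit4* (27.7 ± 7.56) and *Atf5* (22.2 ± 1.79), which overlapped as well. *Trib3* had moved up in the order to 9.18 ± 1.13, apart from its neighbours on either side. *Ppp1r15a* (4.12 ± 0.690), *Chac1* (3.97 ± 1.13) and *Sesn2* (2.97 ± 0.588) overlapped as neighbours in that order. *Cebpb* was last at 1.77 ± 0.462, with all libraries below those of *Sesn2*.

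**Figure D2:**
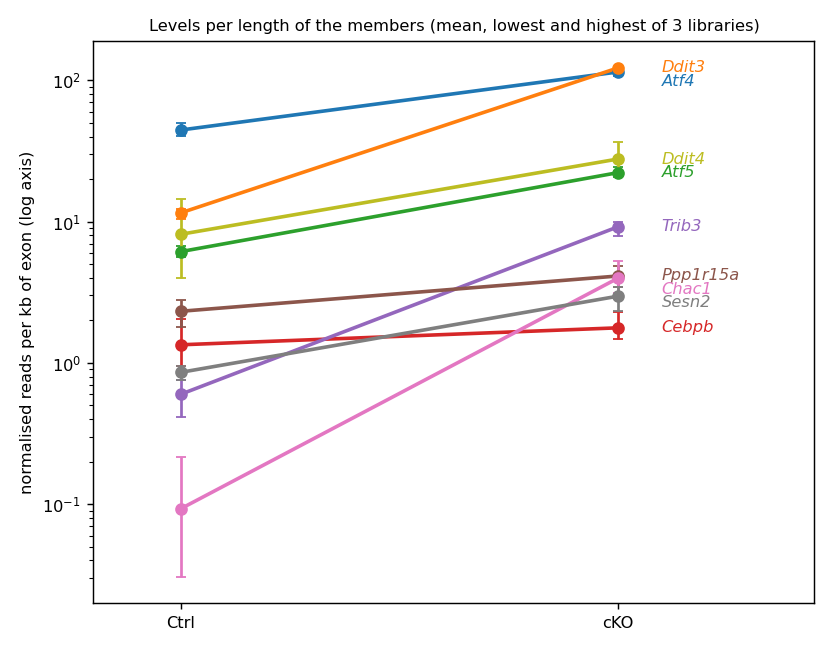
Mean level of each member in normalised reads per kb of exon (log axis) in Ctrl and cKO, with whiskers from the lowest to the highest of the 3 libraries of a group. *Ddit3* reaches the level of *Atf4* in cKO (122 and 115 per kb), *Trib3* and *Chac1* have the steepest lines, and the line of *Cebpb* is nearly flat.

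Most members belong to small families, and their paralogs were compared within each library as differences of log2(value + 1). Library scaling then cancels except through the added 1, which weighs most on low genes. Paralog pairs were tested by permuting group labels (exact, two-sided, 20 ways to assign 6 libraries), which can reach no p below 0.1, so that no pair could pass 0.05. Of the 10 pairs, 7 had the smallest exact p of 0.1 (Benjamini-Hochberg adjusted 0.143), namely those of *Trib3*, *Sesn2*, *Chac1*, *Ppp1r15a* and *Atf4*. The p of the *Chac1* pair does not count as a test, since its row exists through cKO alone. *Trib1* and *Trib2*, the other Tribbles pseudokinases, fell in cKO while *Trib3* rose. *Trib1* was at 20.7 ± 2.28 and 8.61 ± 1.04 (log2 fold change -1.17, adjusted p 2.14e-06), and *Trib2* at 46.4 ± 3.45 and 11.5 ± 1.24 (log2 fold change -1.93, adjusted p 3.92e-10). The log2 ratio of *Trib3* to *Trib2* went from -4.43 in Ctrl to 0.65 in cKO, a shift of 5.08, and against *Trib1* the shift was 4.32.

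The sestrins, inhibitors upstream of mTORC1, moved apart. *Sesn1* rose 1.64-fold (40.9 ± 2.58 to 67.2 ± 4.67, adjusted p 5.35e-06) and *Sesn3* fell by 0.75 on the log2 scale (32.8 ± 5.62 to 18.9 ± 1.08, adjusted p 8.84e-05). Relative to them *Sesn2* shifted by 0.79 and 2.24 log2 units. *Ppp1r15b*, which encodes CReP, the constitutive counterpart of GADD34, had 349 ± 15.1 and 316 ± 29.4 normalised reads (adjusted p 0.129), and *Ppp1r15a* shifted by 0.90 log2 units relative to it. *Chac2* had 4.38 ± 1.88 and 3.05 ± 0.367 (adjusted p 0.206), with a shift of 3.04 for *Chac1*, whose row exists through cKO alone. *Atf2* fell by 0.24 (log2, adjusted p 0.0254), and *Atf4* shifted by 1.60 relative to it.

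*Cebpb* was set against 3 relatives. Its shift was 0.60 against *Cebpg* (exact permutation p 0.2, adjusted 0.25), 0.10 against *Cebpa* (exact permutation p 0.9, adjusted 0.9) and -0.32 against *Cebpd* (exact permutation p 0.6, adjusted 0.667), and the last 2 changed sign without Ctrl 3 and Ctrl 2. *Cebpg*, a C/EBP protein without an activation domain that dimerises with ATF4, fell by 0.29 (log2) from 136 ± 4.83 (adjusted p 0.00344). *Cebpd* had 0.601 ± 0.279 and 1.49 ± 0.563, with no test given, since fewer than 3 Ctrl libraries were over 0.5 normalised reads. *Jdp2*, a close relative of *Atf3*, rose 8.43-fold from 1.32 ± 0.661 to 11.1 ± 1.03 (log2 fold change 2.43, adjusted p 5.33e-08). In the whole list of paralogs 4 of 17 were higher and 8 lower, beside 27.7% and 25.0% of all genes. The median log2 fold change of the list was -0.24. *Cebpd* and *Cebpe*, 2 of the 4 higher, had fewer than 3 Ctrl libraries over 0.5 normalised reads, and so would have had no row without cKO. Their calls do not count as tests. With libraries scaled to their total reads 4 were lower.

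**Figure D3:**
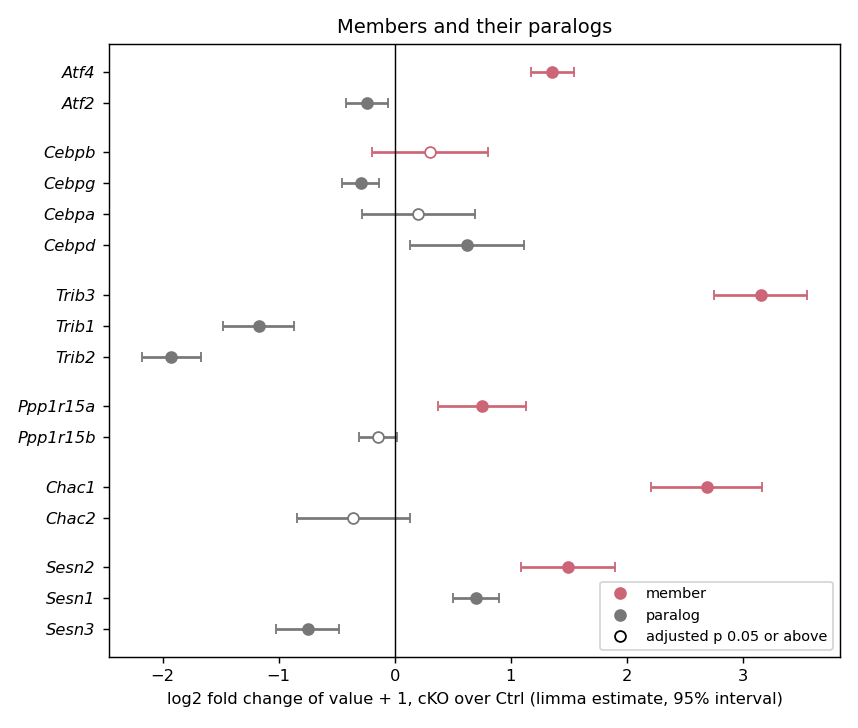
Log2 fold changes of value + 1 (cKO over Ctrl, limma estimate with its 95% interval) of 6 members and of the paralogs paired with them. Filled points passed an adjusted p of 0.05. *Trib3* stands at 3.15 while *Trib1* and *Trib2* stand at -1.17 and -1.93, and the intervals of *Cebpb* and its relatives are closer to 0.

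Genes around the members were examined by lists. Their counts are to be read beside all genes, of which 27.7% were called higher and 25.0% lower. The first list held the eIF2 alpha kinases and genes placed with them as regulators, some of them inhibitors. Of the 11 genes in this list 7 were higher and 3 lower (median log2 fold change 0.29). The 7 included *Fam149b*, named after its values were seen (log2 fold change 0.46, adjusted p 0.00381). Whether *Fam149b* acts on these kinases was not tested. *Eif2ak2* (PKR, the kinase activated by double-stranded RNA and an interferon-stimulated gene) rose 2.24-fold, from 45.8 ± 2.52 to 103 ± 0.624 (adjusted p 2.82e-09). *Impact*, an inhibitor of the kinase GCN2, rose 2.05-fold (adjusted p 6.15e-07), and *Prkra*, an activator of PKR, rose 1.99-fold (adjusted p 0.000508). *Eif2ak1*, *Eif2ak3* and *Eif2ak4*, the kinases HRI, PERK and GCN2, were named after their values were seen. *Eif2ak1* and *Eif2ak3* were among the genes lower (log2 fold changes -0.44 and -0.36), and *Eif2ak4* was higher (0.32, adjusted p 0.0036). With libraries scaled to their total reads, 0 of the 11 were lower.

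Of the subunits of eIF2, its exchange factor eIF2B and the phosphatase, 2 of 16 were higher and 4 lower (median -0.13). The shares over all genes were 27.7% and 25.0%. *Ppp1cc* and *Ppp1ca*, catalytic subunits of protein phosphatase 1, fell by 1.06 and 0.56 (log2; adjusted p 3.8e-09 and 2.04e-06), and *Eif2b3* rose 1.42-fold (adjusted p 0.00257). These counts moved with scaling, to 1 higher and 8 lower with libraries centred on their medians and 4 higher and 2 lower when scaled to total reads, and 1 was higher without cKO 2 or cKO 3.

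Lists of ATF4 targets held more rises than falls, while over all genes 27.7% were higher and 25.0% lower. Of 20 genes of amino acid synthesis and transport 14 were higher and 0 lower (1 lower without Ctrl 1), with a median of 0.56, and on the scale of log2(value + 1) the largest changes were those of *Asns*, *Slc6a9* and *Slc1a4*. *Asns*, asparagine synthetase and a textbook ATF4 target, had 1.65, 3.89 and 3.03 normalised reads in Ctrl 1, 2 and 3 and 38.6, 34.5 and 35.4 in cKO 1, 2 and 3, a 12.7-fold difference of means (log2 fold change 3.31, adjusted p 1.18e-10). The glycine transporter gene *Slc6a9* rose from 0.758 ± 0.505 to 9.79 ± 1.67 (log2 fold change 2.64, given as a description with no test). *Slc1a4*, which carries alanine, serine and cysteine, rose 6.90-fold (adjusted p 7.29e-11). By the ratio of means *Slc7a3*, a transporter of basic amino acids named after its values were seen, was above *Slc1a4*, with 0, 13 and 5 reads in Ctrl 1, 2 and 3 and 61, 75 and 93 in cKO (10.5-fold). *Slc7a3* and *Slc6a9* each had fewer than 3 Ctrl libraries over 0.5 normalised reads, and so would have had no row without cKO. Both were among the 14 called higher, and their calls do not count as tests. Not every gene of the list was called. *Psat1*, an enzyme of serine synthesis named after its values were seen, had 236 ± 25.9 and 205 ± 7.26 normalised reads (adjusted p 0.0589).

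Of 13 tRNA synthetase and tRNA export genes 11 were higher and 0 lower (median 0.47), beside 27.7% and 25.0% of all genes. Their changes were smaller than those of *Asns*. *Cars* rose 2.61-fold (52.3 ± 4.62 to 137 ± 2.83, adjusted p 3.91e-10), *Yars* 2.15-fold (adjusted p 3.02e-09) and *Sars* 1.98-fold (adjusted p 1.73e-08). Of 20 other reported targets of ATF4 and CHOP 10 were higher and 3 lower (median 0.37). *Bbc3*, which encodes the death-promoting BH3 protein PUMA, rose 8.41-fold from 1.59 ± 0.737 to 13.4 ± 2.55 (adjusted p 4.16e-08). *Vldlr*, a lipoprotein receptor gene, had 0 reads in Ctrl and 65 reads in cKO, which is at least 19.2-fold higher if Ctrl is set to a group floor of 3 reads. It too had a row through cKO alone, so no test is given, and 9 of the other 19 genes were higher.

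Neighbouring responses gave mixed counts, beside 27.7% higher and 25.0% lower over all genes. Of 24 targets of ATF6 and IRE1, the other branches of the unfolded protein response, 6 were higher and 5 lower (median 0.05). *Herpud1*, part of the machinery that clears proteins from the endoplasmic reticulum, fell by 1.29 on the log2 scale (204 ± 23.7 to 82.7 ± 1.29, adjusted p 1.04e-09), while *Ern1*, which encodes IRE1, rose 1.98-fold (adjusted p 7.39e-06) and *Derl3* 1.95-fold (adjusted p 0.00291). The number called higher was 2 with median centring and 13 with libraries scaled to total reads, so no direction is given for the list. Of 24 regulators of mTORC1 8 were higher and 7 lower (median 0.08), with *Tsc1* up 1.77-fold (adjusted p 1.45e-07) and *Mlst8* up 1.72-fold (adjusted p 1.23e-05). With libraries scaled to total reads 13 were higher and 2 lower, so here too no direction is given. *Castor1*, an arginine sensor, had 0.253 ± 0.0941 and 1.36 ± 0.470 normalised reads, with a row through cKO alone and so no test, and 7 of the other 23 genes were higher.

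Of 27 other bZIP factors 11 were higher and 2 lower (median 0.15), beside 27.7% and 25.0% of all genes. *Hlf*, among those higher, had a row through cKO alone, so no test is given for it, and 10 of the other 26 were higher. *Bach2*, a repressor that takes part in B cell development, fell by 1.56 on the log2 scale from 878 ± 97.1 to 296 ± 13.7 (adjusted p 2.45e-11), and *Nfe2* and *Batf* rose 3.19-fold and 3.17-fold (adjusted p 2.29e-05 and 0.000134). Of 17 immediate early genes, which respond to handling and acute stress, 7 were higher and 3 lower (median -0.05), among them *Socs3* (4.41-fold higher, adjusted p 2.98e-05), *Nr4a1* (2.31-fold higher, adjusted p 0.000409) and *Nfkbia* (log2 fold change -1.15, adjusted p 2.74e-08). The counts of lower genes were less stable, with 6 bZIP factors without Ctrl 2 and 4 without Ctrl 3, and 6 immediate early genes without either of these.

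**Figure D4:**
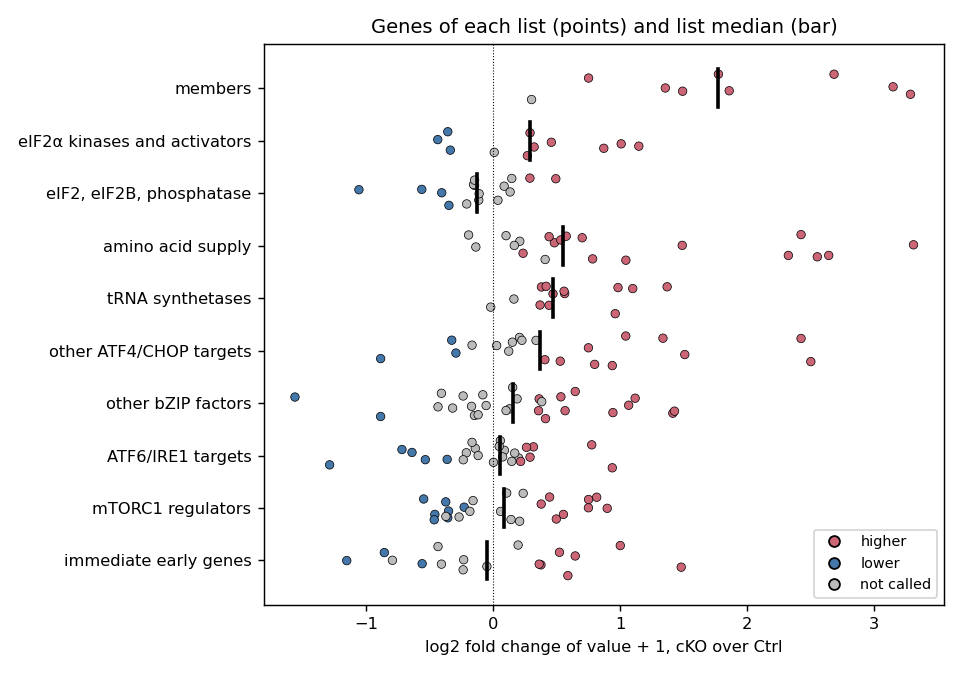
Log2 fold changes of value + 1 (cKO over Ctrl) of the genes of each list, 1 point per gene and a black bar at the list median, coloured by whether the gene was called. The medians of the members (1.78), of the amino acid genes (0.56) and of the tRNA synthetases (0.47) lie to the right of 0, and those of the ATF6 and IRE1 targets (0.05) and the immediate early genes (-0.05) lie close to it.

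Profiles most like those of *Ddit3* and *Atf4* were sought over the 6 libraries among 8632 other genes with a mean of at least 10 normalised reads, by the root mean square difference of log2(value + 1) after centring on the Ctrl mean. The nearest to *Ddit3* were *Flt3*, a receptor gene of early lymphoid progenitors (difference 0.098, 2.03 ± 0.495 and 29.8 ± 1.07 normalised reads), *Kif17* (0.122) and *1700048O20Rik* (0.179). The nearest to *Atf4* were *Pstpip1* (0.039, 16.8 ± 1.39 and 44.6 ± 1.31 normalised reads), *Urm1* (0.040) and *Acsl1* (0.061). Over 6 libraries in 2 groups this measure weighs mainly the size of the difference between the groups.

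Markers of cell types differed between the groups as well. All 15 B lineage markers had a row, and *Vpreb1* (165 to 180 normalised reads in Ctrl, 221 to 236 in cKO) and *Igll1* (285 to 324 and 288 to 315) were high in every library. Of the 15, 6 were higher and 4 lower, beside 27.7% and 25.0% of all genes. *Dntt* was up 3.10-fold and *Rag1* 2.91-fold, genes of the recombining stage. The genes lower were *Cd79a* (log2 fold change -1.58), which carries Cre, *Vpreb3* (-1.07), *Ptprc* (-0.85) and *Il7r* (-0.61). Of 5 plasma cell markers with a row 0 were higher, 3 lower and 2 not called. *Irf4* fell by 1.94 on the log2 scale, *Jchain* by 1.22 and *Sdc1* by 0.91. In Ctrl *Irf4* stood at 466 ± 9.32 normalised reads and *Jchain* at 2.01 ± 1.80. Whether the fall of *Irf4* concerns plasma cells was not tested. *Jchain* had few reads, with 9, 40 and 9 in Ctrl 1, 2 and 3 and 4 in the cKO group. *Cd3e* and *Hbb-bs* had no row, and 0 of 5 erythroid and megakaryocyte markers were called. Of the 2 T and NK markers with a row, *Klrb1c* rose from 0.595 ± 0.229 to 3.20 ± 0.580, also with fewer than 3 Ctrl libraries over 0.5.

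Of 15 myeloid markers with a row 8 were higher and 1 lower, beside 27.7% and 25.0% of all genes. *Elane*, *Ly6g*, *Camp* and *Cebpe* had fewer than 3 Ctrl libraries over 0.5 normalised reads, and so would have had no row without cKO. Of these 4, 3 were among the markers called higher. The summed level of the 15 markers ranged from 72.6 to 195 normalised reads in Ctrl and from 410 to 559 in cKO. The neutrophil granule genes carried most of it in cKO. The sort had removed cells stained for CD3e, CD11b, CD11c, F4/80 or TER-119. *S100a9* had 21.9, 2.17 and 2.93 normalised reads in Ctrl 1, 2 and 3 and 112, 86.1 and 83.1 in cKO, *Ltf* had 28.0, 1.77 and 1.84 and then 116, 82.7 and 86.1, and *S100a8* had 7.38, 0.556 and 0.844 and then 33.3, 20.9 and 24.1. The calls of these 3 (adjusted p 0.024, 0.0415 and 0.0252) were lost without Ctrl 2, Ctrl 3 or any 1 of the cKO libraries, and the count of markers called higher was then 5 without Ctrl 3, cKO 1 or cKO 2 and 4 without cKO 3. The 1 marker called lower was *Itgam*, which encodes CD11b and was named after its values were seen. It had 33.2 ± 6.62 and 24.5 ± 3.85 normalised reads (adjusted p 0.0199), and its groups overlapped. *Lyz2*, shared by macrophages and neutrophils, rose 1.68-fold, *Mpo* (adjusted p 0.376) and *Csf1r* (adjusted p 0.798) were not called, and *Ly6g* had 0 reads in Ctrl 2 and Ctrl 3. Ctrl 1 lay above the other Ctrl libraries for these granule genes. Among the members it was the highest Ctrl library for *Ddit3*, *Trib3*, *Atf5* and *Ppp1r15a*, and not for *Atf4*, *Chac1*, *Sesn2*, *Cebpb* and *Ddit4*. The part of myeloid RNA in the values of the members was not tested.

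**Figure D5:**
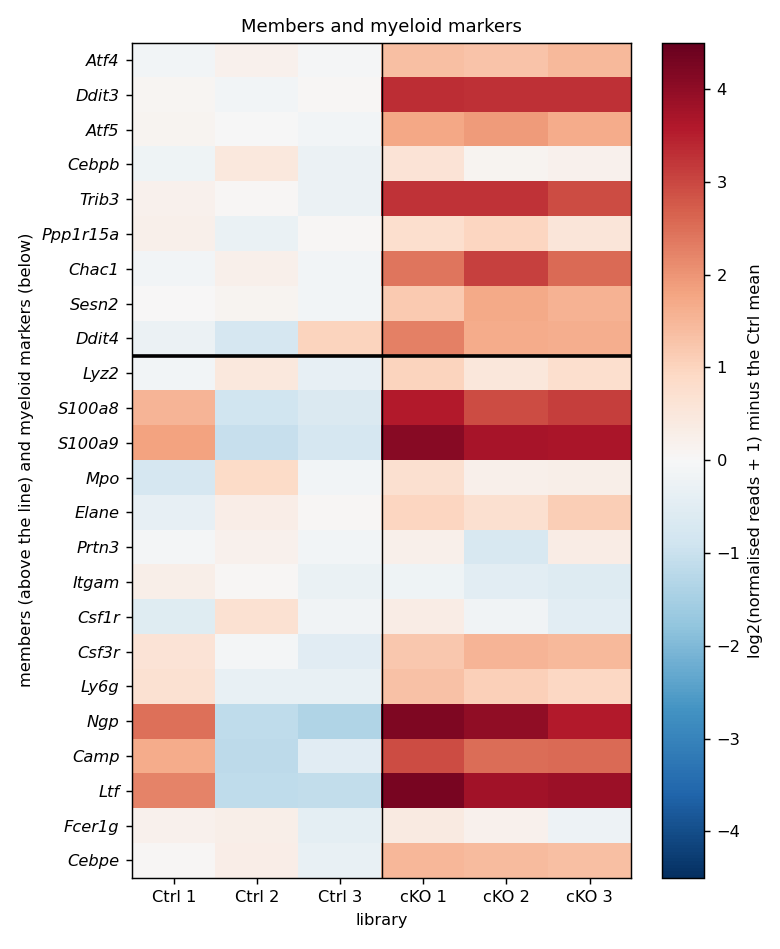
Log2(normalised reads + 1) minus the Ctrl mean of each gene (colour scale) in the 6 libraries, for the 9 members above the line and 15 myeloid markers below it. The granule genes *S100a8*, *S100a9*, *Ngp*, *Camp* and *Ltf* are raised in Ctrl 1 and in all cKO libraries, and among the members *Ddit4* stands highest of the Ctrl libraries in Ctrl 3 and *Cebpb* in Ctrl 2.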

How the data were processed

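Early LPre-B cells of 3 Ctrl and 3 cKO samples were profiled by RNA-seq after ribosomal RNA depletion. Per the study's methods, single-end reads were aligned by HISAT2 (mm10, unstranded) and counted per gene by featureCounts (2.0.1 in the submitters' processing notes, which also name cutadapt 4.0 and limma 3.48.0). The authors deposited a linear signal, which equals (reads + 0.5) per 1e6 of an effective library size and is called normalised reads here. Whole reads were recovered for at least 99.99% of values (tolerance 0.01), with totals from 9732498 to 11006834 per library. Reads carry no molecular identifiers, so intervals and floors cover counting error only. RefSeq (GRCm38.p6) named 13008 of the 13426 Entrez IDs, GENCODE M21 named 3, and 415 were left unnamed.

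Differential expression was tested with limma 3.58.1 (R 4.3.3) on log2(value + 1), using robust eBayes with an intensity trend, no covariate besides group, and p-values adjusted by Benjamini-Hochberg across the 13426 genes. The procedure was tested on simulated data. Alternatives on recovered reads used edgeR 4.0.16 or DESeq2 1.42.0. The study describes its replicates as biological and independent. The labels do not tie libraries to animals.

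Members and lists were chosen with earlier results of these data known. Named genes were the members, *Upf1*, up to 3 called genes of a list with the largest changes, paralogs, 3 nearest profiles for *Ddit3* and *Atf4*, and fixed marker examples. Part of the sort definition and of the marker examples is not reported here. Upstream frames and exon junctions were read in the principal protein-coding GENCODE transcript with the longest coding sequence. Same-numbered replicates did not deviate together (r 0.082, -0.030 and -0.021), so the numbers were not taken as pairs. In the column headers the cKO and Ctrl libraries of a replicate carry adjacent numbers, whose meaning is not stated. A fit with the replicate as a block is among the alternatives.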

Additional observations from a re-analysis of the deposited data

How the results depend on the processing

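Over the alternatives run, *Atf4*, *Ddit3*, *Trib3*, *Chac1*, *Atf5*, *Ppp1r15a* and *Sesn2* stayed called higher in each in which they were tested, with log2 fold changes from 1.25 to 1.56 for *Atf4*, 3.18 to 3.482 for *Ddit3*, 3.02 to 3.99 for *Trib3*, 1.67 to 1.97 for *Atf5*, 0.57 to 0.93 for *Ppp1r15a* and 1.30 to 1.81 for *Sesn2*. The range was widest for *Chac1*, from 2.49 to 6.02, and its calls follow from a row that exists through cKO alone. *Cebpb* was called in none of its 18 alternatives (adjusted p 0.0708 to 0.682). *Ddit4* was called in 12 of 19. It was not called with median centring (log2 fold change 1.75, adjusted p 0.0502) or with the replicate block (1.86, adjusted p 0.0835), and its log2 fold change ranged from 1.49 to 2.35 over the fits without 1 library. A minimum mean log2 value of 3 left 5 members called higher, since *Trib3*, *Chac1*, *Sesn2* and *Cebpb* were then not tested. The replicate block gave 3668 genes higher and 3321 lower, and 5 immediate early genes lower, and changed the call of no member but *Ddit4*. Scaling to total reads left 1936 genes lower. It gave 0 kinase genes lower, 4 higher and 2 lower among the eIF2 genes, 1 other ATF4 and CHOP target lower, 4 paralogs lower, 13 ATF6 and IRE1 targets higher, and 13 mTORC1 regulators higher and 2 lower. Median centring gave 1 eIF2 gene higher and 8 lower, 1 amino acid gene lower, 5 bZIP factors lower, 2 ATF6 and IRE1 targets higher and 5 immediate early genes lower, and quantile normalization gave 10 ATF6 and IRE1 targets higher. edgeR called 4 bZIP factors and 6 immediate early genes lower, and DESeq2 called 4 bZIP factors and 1 amino acid gene lower. eBayes without trend called 1 eIF2 gene and 3 ATF6 and IRE1 targets higher, and without robust estimation 5 immediate early genes lower. A minimum mean log2 value of 3 left 1 paralog and 7 bZIP factors higher. Over the fits without 1 library, 0 to 1 amino acid genes, 2 to 6 immediate early genes and 2 to 6 bZIP factors were lower, and 1 to 2 eIF2 genes higher. With a pseudocount of 0.1 and with none, the shifts were 5.11 and 5.24 for *Trib3* against *Trib1*, 5.86 and 5.99 against *Trib2*, 1.03 and 1.06 for *Sesn2* against *Sesn1*, and 5.32 and 6.47 for *Chac1* against *Chac2*. The shift of *Cebpb* ranged from -0.14 to 0.31 against *Cebpa* and from -0.56 to 0.031 against *Cebpd* over the fits without 1 library, and so changed sign (-0.14 without Ctrl 3 and 0.031 without Ctrl 2). Apart from scaling and filters, which change the values or genes tested, the cause of these changes was not tested. Depth limited *Chac1*, *Trib3* and *Cebpb* in Ctrl, where 3 reads are worth about 0.3 normalised reads per library.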
